A study of Mus musculus with 4 samples.

Results

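The regions described here are acetylated intervals of intermediate width that carry a single GATA4 peak. They were selected on the measured peak positions: an interval of the H3K27ac list had to span at least 2 kb and less than 20 kb, share at least 1 bp with exactly 1 GATA4 peak and share none with a TCF7L2 peak. This rule found 3958 of the 75011 H3K27ac intervals, 5.28% (95% Wilson interval 5.12 to 5.44). Among the 27483 intervals of that width they made up 14.4% (14.0 to 14.8), and 22531 intervals (82.0%) had neither factor and served as the background. The other intervals of that width were 557 with 2 or more GATA4 peaks and no TCF7L2, 215 with TCF7L2 and no GATA4, and 222 with both factors. The number of members, their widths and their GATA4 counts follow from the rule and are given as a description.

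The data come from chromatin immunoprecipitation and sequencing of cardiac ventricles of wild-type C57BL/6 mice at postnatal day 6, with the ventricles of 10 hearts pooled for each precipitation. Antibodies against GATA4, against TCF7L2 and against H3K27ac were used, the labels give no treatment, and an input control of the series is not analysed here. Each antibody has 1 list of peak positions in the mouse build mm9, without heights or read counts, so depth is unknown and no value has a replicate error. The labels state 2 biological replicates, and how the list was made from them is not given. Intervals in brackets are 95% intervals that cover counting error over regions, neighbouring regions are not fully independent, and no p-value is given. Whole ventricles hold several cell types, and a peak list does not tell in which of them a position was bound or acetylated. A gene table and genome sequence of build mm9 were not used here, so regions are named by position alone, no sequence is shown, and the labelled tissue was not checked against marker genes.

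GATA4 is a zinc-finger transcription factor that binds DNA at short motifs with a GATA core and is needed for heart development and for the genes of heart muscle. Acetylation of lysine 27 of histone H3 marks active promoters and enhancers, where coactivators recruited by transcription factors deposit it on the nucleosomes around the bound DNA. TCF7L2 is a DNA-binding effector of Wnt signalling, and intervals with it were set aside by the rule.

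Single GATA4 peaks were more frequent in wider acetylated intervals. Each width class below includes its lower and leaves out its upper limit. Exactly 1 GATA4 peak and no TCF7L2 was found in 596 of 7597 intervals of 2 to 3 kb, 7.85% (7.26 to 8.47). The share was 11.9% (11.2 to 12.6) in 8650 intervals of 3 to 5 kb and 18.5% (17.7 to 19.4) in 7761 intervals of 5 to 10 kb. It reached 25.8% (24.4 to 27.3) in 3475 intervals of 10 to 20 kb, where intervals with 2 or more GATA4 peaks made up a further 8.60%, against 0.329% in the narrowest class. Per length of acetylated DNA the number of GATA4 peaks differed little between the classes. Counting every GATA4 peak in these intervals, there were 3.56 per 100 kb in the narrowest class, 3.73 and 3.44 in the middle classes and 3.53 in the widest.

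**Figure D1:**
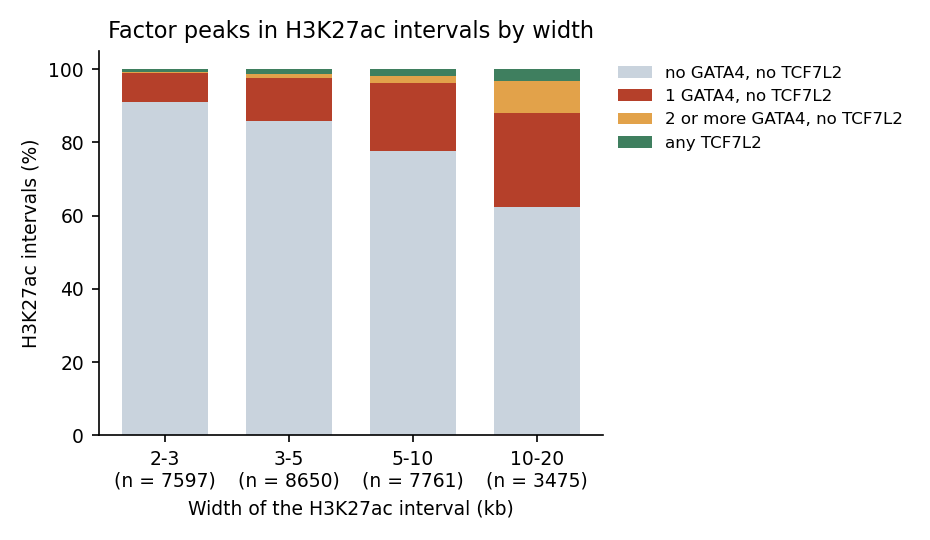
Share of H3K27ac intervals (vertical axis, %) by the factor peaks they hold, in 4 classes of interval width (horizontal axis, kb, with the number of intervals). The red part, a single GATA4 peak without TCF7L2, grows from 7.85% to 25.8% of the intervals.

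The share with a single GATA4 peak was lower just below the lower width limit than just inside it, and at the upper limit the shares did not differ beyond counting error. Below the lower limit, intervals of 1.5 to 2 kb held exactly 1 GATA4 and no TCF7L2 peak in 233 of 5412 cases (4.31%, 3.8 to 4.88), and just inside it, intervals of 2 to 2.5 kb did so in 291 of 4225 (6.89%, 6.16 to 7.69). At the upper limit the shares were 29.1% (22.6 to 36.6) of 158 intervals of 19 to 20 kb and 32.0% (24.6 to 40.5) of 128 intervals of 20 to 21 kb. The widest interval left out at the lower end spanned 1999 bp on chromosome 10 (7511825 to 7513823), and the narrowest members spanned 2002 bp on chromosome 10 (95510049 to 95512050) and on chromosome 11 (115424636 to 115426637). At the upper end the widest member spanned 19963 bp, and the narrowest interval left out spanned 20063 bp on chromosome 8 (80230999 to 80251061).

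The members had a median width of 5836 bp (quartiles 3627 and 9411 bp), against 3968 bp (2776 and 6281 bp) for the background. Most comparisons with the background were therefore made within the 4 width classes, or averaged over them with the members' numbers as weights. Values of all members set beside those of the whole background are not matched for width. Their GATA4 peaks were 37.6% of the 10530 peaks of the GATA4 list, 1 peak per member. Of these peaks 3916 lay wholly inside the acetylated interval, 42 crossed its border, and 22 of the 42 had their midpoint outside it.

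The single GATA4 peak lay towards the middle of its acetylated interval. Position was taken as the distance of the GATA4 midpoint from the interval centre over the distance from centre to border, so that 0 is the centre and 1 the border. Its median was 0.320 (0.309 to 0.330, quartiles 0.155 and 0.528), where an even spread would give 0.5. Positions below 0.1 held 639 members (16.1%) and those from 0.9 to 1 held 82 (2.07%), against 10% each for an even spread. In 71.8% (70.4 to 73.2) of members the midpoint lay below 0.5 on this scale. The peaks were split evenly between the sides of the centre, with 1992 of 3958 at lower coordinates (50.3%, 48.8 to 51.9).

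The central placement was seen in every width class and was weakest in the widest. The median position was 0.310 (0.284 to 0.339) in members of 2 to 3 kb, 0.282 (0.265 to 0.305) in those of 3 to 5 kb and 0.311 (0.294 to 0.327) in those of 5 to 10 kb. In members of 10 to 20 kb it was 0.390 (0.366 to 0.430), and the interval of that median does not overlap those of the other classes. In base pairs, the GATA4 midpoint was a median of 380.75 bp from the centre in the narrowest members and 2656 bp in the widest. Its median distance to the nearer border was 840.5 bp in the narrowest members, 1333 bp and 2276 bp in the middle classes, and 3986 bp in the widest.

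**Figure D2:**
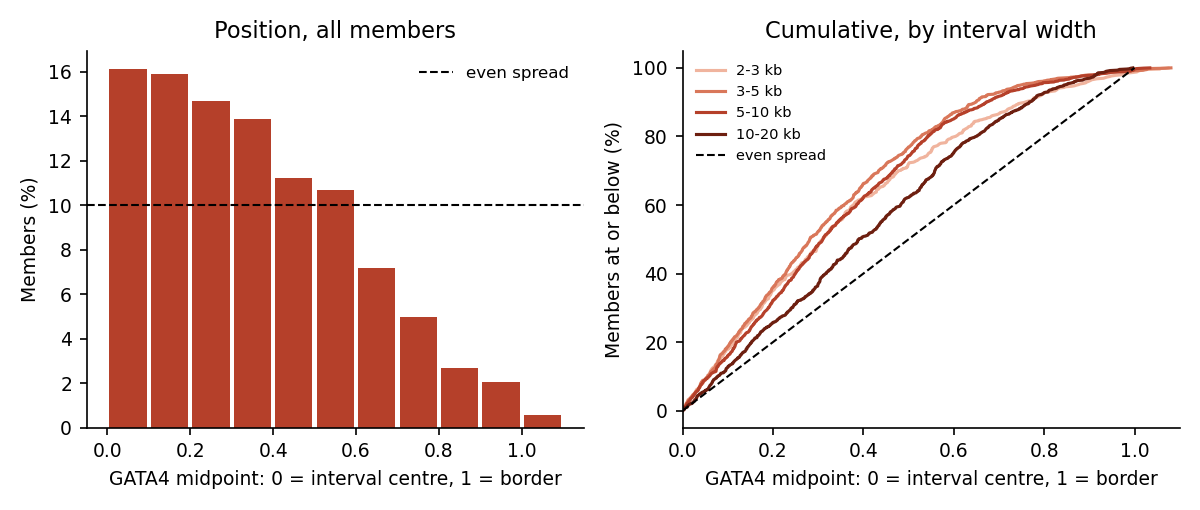
Left, share of members (vertical axis, %) by the position of the GATA4 midpoint in its H3K27ac interval (horizontal axis, 0 is the centre, 1 the border; bars are 0.1 wide and the last bar holds the 22 midpoints outside the interval). Right, cumulative share of members by the same position, 1 line per class of interval width. The dashed lines show an even spread, and the line for 10 to 20 kb lies nearest to it.

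Single GATA4 peaks outside this width range had higher median positions than the members as a whole. Intervals under 2 kb with exactly 1 GATA4 and no TCF7L2 peak had a median position of 0.452 (0.420 to 0.485, n = 675), and those of 20 kb or more had 0.464 (0.434 to 0.501, n = 454). Both 95% intervals lie above that of the members. Within the range of 2 to 20 kb, GATA4 peaks that shared their interval with others had a median position of 0.377 (0.354 to 0.394, n = 1208). This value is not matched for width, as the median width of those intervals was 10602 bp against 5836 bp of members. The 209 intervals of 2 to 20 kb with exactly 1 TCF7L2 peak and no GATA4 had a median of 0.367 (0.318 to 0.425), an interval that overlaps that of all members.

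Among members of 10 kb or more, some GATA4 peaks lay almost exactly at the centre. In an interval of 11747 bp on chromosome 4 (141648582 to 141660328), the GATA4 peak of 266 bp (141654326 to 141654591) had its midpoint 3.5 bp from the centre. On chromosome 7, an interval of 10220 bp (25684197 to 25694416) held its peak of 173 bp at 11.5 bp from the centre. Then followed intervals on chromosome 14 of 11931 bp (27255174 to 27267104) and 17841 bp (63488189 to 63506029), and one on chromosome 9 of 13394 bp (45816689 to 45830082), with midpoints 23.5, 38 and 29.5 bp from the centre. These 5 were picked for this property. The 5 widest members had their peaks at 0.413 or farther out. The widest, on chromosome 1 (181474784 to 181494746), had its 133 bp peak at position 0.828, and the next, of 19900 bp on chromosome 11 (96823957 to 96843856), had a 422 bp peak at 0.533. The other 3, on chromosome 11 (116698997 to 116718891), chromosome 5 (34510334 to 34530200) and chromosome 6 (72179735 to 72199590), had positions of 0.413, 0.812 and 0.582.

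Members stood in less acetylated surroundings than intervals of the same width with neither factor, except in the widest class. Other H3K27ac intervals covered a median of 7.57% (6.35 to 9.0) of the flanks, taken as the 50 kb on either side, around members of 2 to 3 kb, against 21.2% (20.6 to 22.0) around background intervals of that width. The difference was -13.6 percentage points (-15.1 to -12.1). For 3 to 5 kb the medians were 14.3% and 23.7%, and for 5 to 10 kb they were 24.6% and 30.3%. In the widest class they were 36.0% and 38.3%, and the interval of the difference, -2.33 points (-4.34 to 0.218), included 0. Averaged over the classes the difference was -7.08 points (-7.92 to -6.12). The ranges overlapped widely: the upper quartile of the narrowest members, 18.8%, lay above the lower quartile of their background, 8.57%. With flanks of 200 kb, tried later with these values known, the averaged difference was -3.51 points.

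The gap to the nearest other H3K27ac interval showed the same order. In members of 2 to 3 kb it had a median of 6393.5 bp (5180 to 8348), against 1433.5 bp (1359 to 1529) in the background. The medians were 2937.5 and 1291.5 bp for 3 to 5 kb, 1115 and 932 bp for 5 to 10 kb, and 839 and 779 bp for 10 to 20 kb. With the classes averaged, the median gap of members was 1254 bp longer (1015 to 1607). This average moved with the settings: it was 643 bp for intervals of 3 to 15 kb, 284 bp without width classes and 2087 bp after H3K27ac intervals 1 kb or less apart were joined. No H3K27ac interval at all was found in the flanks of 68 of the 596 narrowest members (11.4%, 9.10 to 14.2), compared with 268 of 6922 background intervals (3.87%, 3.44 to 4.35).

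**Figure D3:**
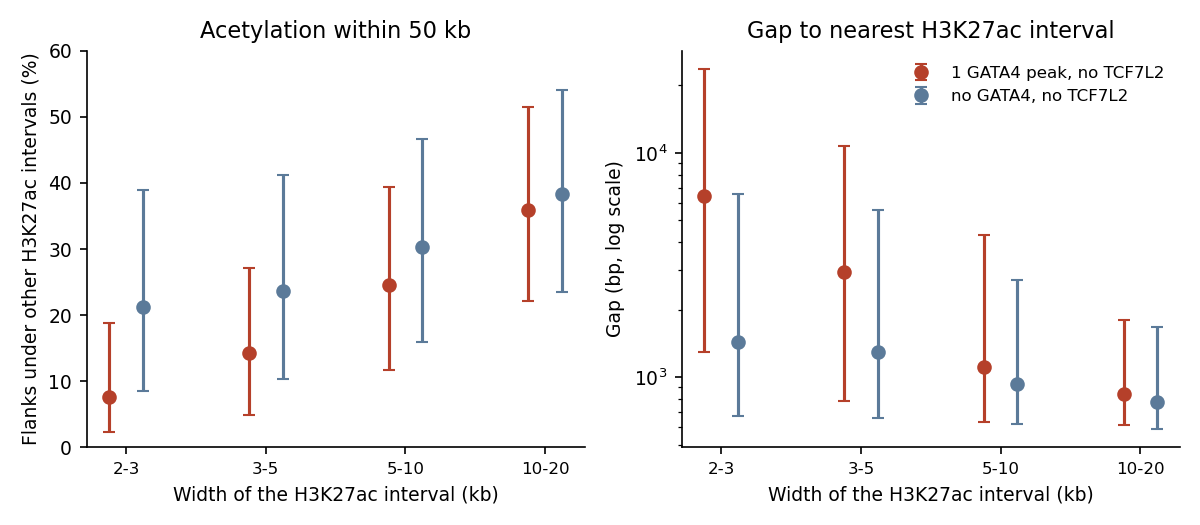
Left, percent of the 50 kb flanks under other H3K27ac intervals; right, gap to the nearest other H3K27ac interval in bp on a log axis, both by width of the interval in kb. Points are medians and bars run from the lower to the upper quartile, in red for intervals with a single GATA4 peak and in blue for those with neither factor. The groups lie farthest apart at 2 to 3 kb and nearly meet at 10 to 20 kb.

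Narrow members were isolated more often than narrow intervals with neither factor. The nearest H3K27ac interval was 10 kb or more away for 760 of 3958 members (19.2%, 18.0 to 20.5), while 14.5% of all intervals of this width range and 13.5% of the background were as far from a neighbour. In the class of 2 to 3 kb, 42.8% of members and 18.9% of the background were isolated in this way, a difference of 23.9 points (19.9 to 28.0). It was 11.3 points (8.49 to 14.2) at 3 to 5 kb, 5.30 points (3.51 to 7.25) at 5 to 10 kb, and 0.428 points (-0.995 to 2.1) in the widest class.

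Members were also more often the broadest acetylated interval of their neighbourhood than intervals with neither factor. No H3K27ac interval within 50 kb was wider in 1480 of 3958 cases (37.4%, 35.9 to 38.9), against 26.3% of all intervals of this width range. For members of 2 to 3 kb the share was 34.7% and for background intervals of that width 15.6%, a difference of 19.1 points (15.3 to 23.1). Intervals with no other H3K27ac interval in the flanks count as the broadest. In this class they were 11.4% of members and 3.87% of the background, so part of the difference comes from intervals with nothing to compare. The shares were 30.9% and 20.3% at 3 to 5 kb, 36.5% and 28.0% at 5 to 10 kb, and 48.0% and 46.0% in the widest class, where the difference of 2.02 points (-1.85 to 5.91) included 0. The measures of isolation and of the broadest interval were added after the data were seen, and both depend on the same neighbouring intervals as the covered share of the flanks.

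Sparse acetylation in the flanks was also seen around intervals with other factor peaks. At 3 to 5 kb the flanks of the 55 intervals with TCF7L2 and GATA4 were covered to a median of 7.50% (3.43 to 11.0), below the 14.3% (13.1 to 15.8) of members. With 2 or more GATA4 peaks the median was 8.69% (5.53 to 13.9, n = 80) in that class, and at 5 to 10 kb it was 18.9% (15.8 to 22.7, n = 153) against 24.6% (23.2 to 26.0) of members. With TCF7L2 and no GATA4 the medians at 2 to 3, 3 to 5 and 5 to 10 kb were 7.63%, 12.4% and 24.5%, each with an interval that included the members' median. In the widest class the medians were 34.1% (30.7 to 36.6) with 2 or more GATA4 peaks, 33.2% (23.1 to 40.4) with both factors and 41.0% (32.4 to 49.1) with TCF7L2 alone.

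In the class of 3 to 5 kb, intervals with 2 or more GATA4 peaks or with both factors were the broadest of their neighbourhood more often than members. The share there was 50% (39.3 to 60.7) with 2 or more GATA4 peaks and 54.5% (41.5 to 67.0) with both factors, against 30.9% (28.2 to 33.8) of members. With TCF7L2 alone it was 38.5% (27.6 to 50.6), an interval that overlaps that of the members. In each other width class the intervals of these sets overlapped that of the members. At 5 to 10 kb the shares were 44.4% (36.8 to 52.4) and 41.0% (30.8 to 52.1), against 36.5% (34.0 to 39.0) of members. Over all widths the shares were 48.7% with 2 or more GATA4 peaks, 50.5% with both factors and 36.7% with TCF7L2 alone. These pooled shares are not matched for width, as the median widths were 10602, 7256 and 5346 bp against 5836 bp of members. A gap of 10 kb or more was seen at 3 to 5 kb in 49.1% (36.4 to 61.9) of intervals with both factors, 33.75% (24.3 to 44.6) with 2 or more GATA4 peaks and 26.2% (17.0 to 38.0) with TCF7L2 alone, against 27.2% (24.6 to 30.0) of members. At 2 to 3 kb it was seen in 8 of 15 intervals with both factors, 9 of 25 with 2 or more GATA4 peaks and 19 of 39 with TCF7L2 alone, and all 3 intervals included the members' 42.8%.

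For GATA4 peaks near the members, the comparison depended on width. In the 50 kb flanks, 2051 of 3958 members (51.8%, 50.3 to 53.4) had at least 1 further GATA4 peak, close to the 50.2% of all intervals of this width range. The sign of the difference from the background changed with width. Of members of 2 to 3 kb, 39.4% had such a peak against 46.3% of the background, a difference of -6.89 points (-10.9 to -2.74), and at 3 to 5 kb the difference was -3.58 points (-6.81 to -0.323). At 5 to 10 kb it was 2.11 points (-0.761 to 4.97), and in members of 10 to 20 kb the shares were 63.2% and 56.3%, a difference of 6.93 points (3.11 to 10.7). Averaged over the classes these differences cancelled to 0.369 points (-1.34 to 2.07). The intervals of the narrowest and the widest class do not overlap, and the difference between classes was not tested. These shares were not adjusted for the covered share of the flanks. Across members that share rose with the number of GATA4 peaks in the flanks (Spearman's rho 0.473).

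**Figure D4:**
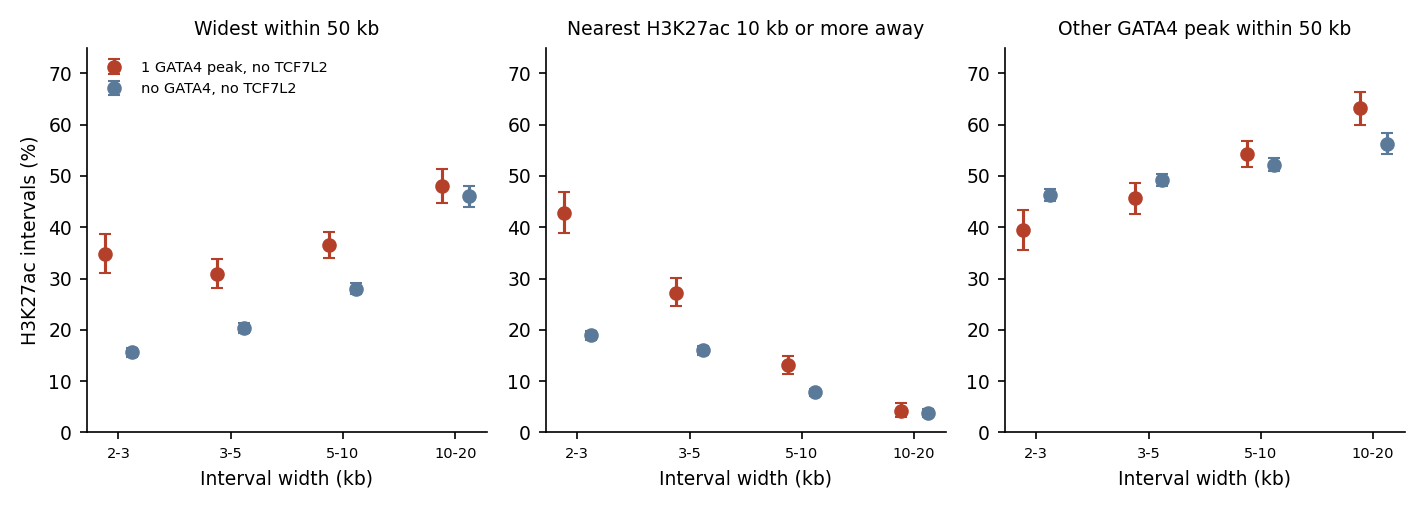
Share of H3K27ac intervals (vertical axis, %) by interval width (horizontal axis, kb) that were the widest within 50 kb (left), had no H3K27ac interval closer than 10 kb (middle) or had another GATA4 peak within 50 kb (right). Red points are intervals with a single GATA4 peak, blue points those with neither factor, and bars are 95% Wilson intervals. In the right panel the red points pass from below the blue ones at 2 to 3 kb to above them at 10 to 20 kb.

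The nearest GATA4 peak outside the member was a median of 47130 bp away from its border (44204 to 49730). That distance was 68417 bp in the narrowest members and 32954 bp in the widest, against 56101 and 41327 bp in the background of the same widths. This nearest peak most often belonged to another member, in 2157 cases (54.5%, 52.9 to 56.0). It lay in an interval of 20 kb or more in 13.6%, in one under 2 kb in 8.21%, and outside H3K27ac in 13.8%. For the background the corresponding shares were 54.0%, 15.5%, 7.76% and 13.2%. Of all GATA4 peaks 37.6% are those of members and 20.6% lie outside H3K27ac. These are shares per peak and those above are shares per interval, so they are not the same measure. The nearest H3K27ac interval itself held GATA4 in 8.92% (8.07 to 9.85) of members and 7.40% (7.06 to 7.75) of the background, and its median width was 1079 bp (1012 to 1143) beside members and 1191 bp (1159 to 1224) beside background intervals.

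TCF7L2 peaks were rare near the members and near the background, and the whole TCF7L2 list held only 774 peaks, against 10530 of GATA4. A TCF7L2 peak lay in the flanks of 237 members (5.99%, 5.29 to 6.77), against 5.8% of all intervals of the width range and 5.76% of the background. With width classes averaged, the difference was -0.128 points (-0.894 to 0.767).

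The GATA4 peak lay slightly more often on the side away from the nearer acetylated interval, a measure added after the data were seen. In 1816 of 3950 members with unequal gaps, the GATA4 midpoint lay on the side of the centre that faces the nearer H3K27ac interval, 46.0% (44.4 to 47.5), where no preference would give 50%. The share was 43.2% (40.4 to 46.1) with a gap of 1 to 5 kb and 47.2% (44.8 to 49.6) with a gap under 1 kb. With a gap of 20 kb or more it was 49.4% (44.7 to 54.2), and it was 50% (46.0 to 54.0) in the narrowest members. Where 1 gap was under 1 kb and the other over 10 kb, it was 42.8% (38.7 to 47.1, n = 537). With respect to the nearer GATA4 peak the interval included 50%, with 49.6% (48.0 to 51.1) on the facing side.

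The GATA4 peaks of members were wider than those outside H3K27ac and narrower than those beside TCF7L2 by their medians, although the interval of the latter overlaps theirs. Their median width was 194 bp (191 to 198, quartiles 146 and 267 bp), and they ranged from 8 to 1153 bp. Only 8 of them were narrower than 125 bp. These included peaks of 12 and 14 bp on chromosome 10 that ended at the last base of their H3K27ac interval. GATA4 peaks of intervals with 2 or more of them had a median of 198 bp (190 to 206), those outside H3K27ac 153 bp (150 to 156), and those in intervals that also held TCF7L2 225 bp (196 to 241). Single peaks in intervals under 2 kb had a median of 178 bp (172 to 187). The most frequent width of the list, 125 bp, was seen in 12.9% of members' peaks and in 27.7% of the GATA4 peaks outside H3K27ac. Peaks of 400 bp or more made up 7.63% of the members' peaks and 15.7% of the GATA4 peaks in intervals that also held TCF7L2. The distance between the peaks of the 2 factors was not measured.

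**Figure D5:**
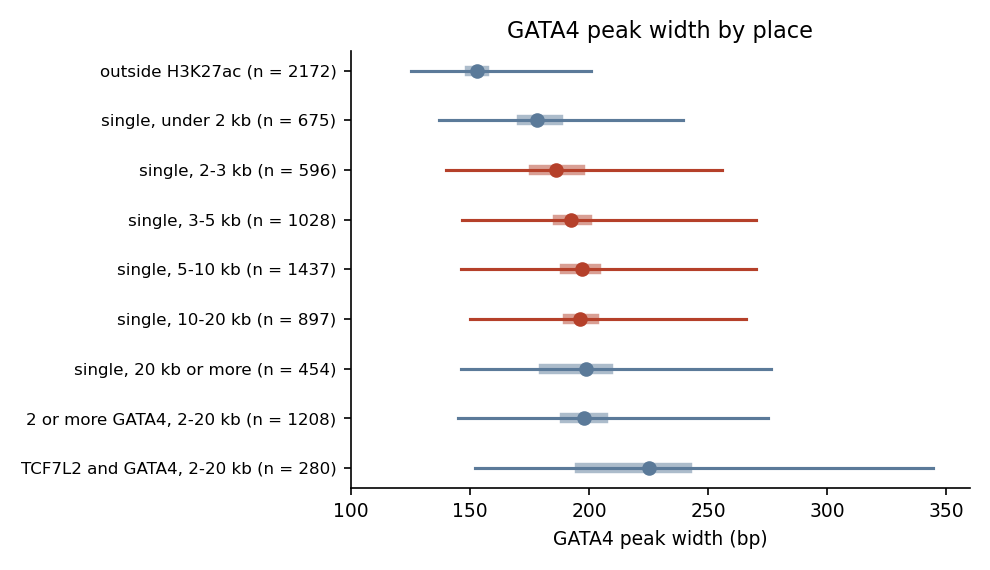
Width of GATA4 peaks (horizontal axis, bp) by where they lie (vertical axis, with the number of peaks). Points are medians, thick bars their 95% intervals and thin lines the quartiles, in red for the members by interval width. Single peaks stay between 178 and 198.5 bp across all interval widths, and peaks outside H3K27ac lie lower at 153 bp.

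Within the members, GATA4 width varied little with the other measures. It was 186 bp (177 to 196) in intervals of 2 to 3 kb and 196 bp (191 to 202) in those of 10 to 20 kb. Peaks nearest the centre, at positions below 0.25, had a median of 196 bp, and those at 0.75 or beyond had 188 bp (175 to 202). Spearman's rho across the 3958 members was 0.0228 between GATA4 width and interval width, -0.0334 between GATA4 width and position, and -0.019 between GATA4 width and the covered share of the flanks. These are descriptions across regions of the same lists. By contrast, interval width and covered flanks had a rho of 0.465, and the number of GATA4 peaks in the flanks and covered flanks had 0.473.

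The members with the widest GATA4 peaks differed in their setting. The widest, 1153 bp (101488342 to 101489494) on chromosome 11, lay in an interval of 5567 bp (101486712 to 101492278) with 6 further GATA4 peaks in the flanks. The second, of 984 bp (101413155 to 101414138), lay on the same chromosome in an interval of 4231 bp (101412179 to 101416409). Only 4.64% of its flanks was acetylated, against 34.8% for the first. The next were a peak of 905 bp in an interval of 19636 bp on chromosome 2 (143802626 to 143822261), one of 871 bp in an interval of 14251 bp on chromosome 14 (63683154 to 63697404) and one of 858 bp in an interval of 8940 bp on chromosome 5 (93691329 to 93700268). These had 1 further GATA4 peak each in the flanks, and the last also had 1 TCF7L2 peak there and 1.38% of its flanks acetylated.

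At one extreme stood members with no other GATA4 peak for more than 1 Mb. The most remote, 2846 bp on chromosome 6 (8207852 to 8210697), had its nearest other GATA4 peak 1.93 Mb away and 2.94% of its flanks acetylated, and its own peak of 185 bp lay 41.5 bp from the centre. Then came an interval of 3578 bp on chromosome 1 (3108553 to 3112130), 1.74 Mb from another GATA4 peak and 1305 kb from another H3K27ac interval, with a peak of 125 bp. It is the first H3K27ac interval listed on that chromosome, and whether it also has a high background was not tested, since the input is not analysed here. The others were on chromosome 12 (11271196 to 11275036, 1.46 Mb), chromosome 16 (48992107 to 48995562, 1.42 Mb) and chromosome 17 (77248146 to 77251516, 1.38 Mb). All 5 were under 4 kb wide, and their GATA4 peaks lay at positions of 0.306 or less.

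At the other extreme were members in dense groups of GATA4 peaks. An interval of 5425 bp on chromosome 11 (68858400 to 68863824) had 10 further GATA4 peaks in its flanks, of which 63.2% was acetylated, and a neighbouring member of 5116 bp (68826954 to 68832069) had 9. The latter's peak lay 2.0 bp from the centre. On chromosome 14, an interval of 4344 bp (55632131 to 55636474) had 10 GATA4 peaks and 1 TCF7L2 peak in its flanks. Members of 4656 and 8788 bp next to each other on chromosome 11 (75309154 to 75313809 and 75320845 to 75329632) had 9 each. The 5 members with most GATA4 neighbours thus came from 3 places, and their flanks were acetylated to between 46.1% and 63.2%.

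Members were found on every autosome and on X. Their share of the intervals of the width range went from 12.7% on chromosome 15 to 17.1% (15.5 to 18.8) on chromosome 11, with 14.5% on all autosomes together. On X it was 37 of 443 intervals, 8.35% (6.12 to 11.3), below the share of each autosome. Its interval overlaps those of chromosome 12 (11.0 to 14.9) and chromosome 15 (10.9 to 14.8). Shares by chromosome were not adjusted for interval width. In windows of 1 Mb, 1440 windows held a member, 479 of them only 1, and 42 held 8 or more. The window with the most, on chromosome 7 from 134000001 to 135000000, held 13 members, and windows on chromosome 4 (129000001 to 130000000), chromosome 9 (77000001 to 78000000) and chromosome 11 (79000001 to 80000000) held 11 each. These windows were named after their values were seen. Members were counted without the number of H3K27ac intervals of this width range in each window. Whether the windows hold more members than their H3K27ac intervals would give was not tested.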

How the data were processed

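ChIP-seq peak lists of P6 ventricles were used for TCF7L2, GATA4 and H3K27ac. The authors deposited them as start and end positions in bp, with no score. Per the submitters' processing notes, MACS2 2.1.1.20160309.0, deepTools, Bowtie2 2.2.6.2 and FastQC 0.10.0 were used with build mm9. Per the labels, each antibody had 2 biological replicates; for the merging into 1 list and the peak threshold, the sources used here give nothing.

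Starts were counted from 0 and are printed from 1. Flank counts used peak midpoints and left out peaks overlapping the interval. Shares carry Wilson intervals, medians order-statistic intervals, and differences intervals combined from these limits (95% level). The interval functions were tested on simulated data. Depth is unknown. No tests were run, since regions of 1 list are not replicates. Motif and gene-start analyses were not run for want of mm9 tables. Members, measures and the rule for named regions (5 per property: widest GATA4 peak, widest interval, most central peak in intervals of 10 kb or more, most remote, most GATA4 neighbours) were chosen with earlier results of these data known. Python 3.11.15, numpy 2.4.6, pandas 2.3.3 and scipy 1.17.1 were used.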

Additional observations from a re-analysis of the deposited data

How the results depend on the processing

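The number of members, the median position and width of their GATA4 peaks, the side facing the nearer H3K27ac interval and the averaged differences in the flanks were recomputed with factor peaks assigned by midpoint, with 50% of the peak covered, on autosomes only, with intervals of 3 to 15 kb, with H3K27ac intervals joined across 1 kb and with GATA4 peaks of the median width (184 bp) or wider, and some also with other flanks, no width classes, classes of 500 bp or only GATA4 peaks wholly inside. With the differences by width class in covered flanks, gap and GATA4 flanks, these made 141 recomputed values. Of these, 124 stayed within the interval of the reported value (counts within 1.5 times), 17 moved outside it, and 0 of those whose interval excluded 0 changed sign. Part of this agreement was fixed in advance. The setting of 3 to 15 kb repeats the values of the classes of 3 to 5 and 5 to 10 kb by construction. Assignment by midpoint and 50% coverage each kept 3939 of the 3958 members, and autosomes alone kept 3921, so these settings could move little. With wider GATA4 peaks only, 2449 members were found and their median GATA4 width was 258 bp, by construction of that setting. With joined H3K27ac intervals the median position was 0.333, the difference in covered flanks -5.99 points, the difference in gap 2087 bp and that in isolation 10.6 points. The difference in covered flanks was -8.44 points with flanks of 20 kb, -3.51 with flanks of 200 kb (added after the data were seen) and -4.95 without width classes. The difference in gap was 643 bp with intervals of 3 to 15 kb and 284 bp without width classes, and that in isolation was 6.33 points with intervals of 3 to 15 kb. The setting of 3 to 15 kb leaves out the narrowest members, where these differences were largest; the cause of the other shifts was not tested. Other values, such as shares by width, chromosome shares and the other sets of intervals, were not recomputed. The difference in covered flanks kept its sign in 10 of 10 settings and that in gap in 8 of 8, whereas the small differences in GATA4 and TCF7L2 flanks kept it in 9 and 6 of 10. No paired analysis was possible because each antibody has 1 list. The alternatives for GATA motifs and gene starts were not run. A stricter threshold could not be set without peak scores, and which narrow intervals or weak GATA4 peaks were missed at the unknown depth was not tested.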
